A study of Mus musculus with 4 samples.

Results

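Immediate-early genes are switched on within minutes of a stimulus, before any new protein is made, and in brain tissue they also mark cells that reacted to being dissociated. The values of 10 of them, Fos, Fosb, Jun, Junb, Atf3, Egr1, Egr3, Nr4a1, Ier2 and Gadd45b, are described here across the cell classes and treatment groups of a single-cell RNA-sequencing study of brain cells from mice with a human APOE gene. The members were the features whose symbol is one of these names, 10 of the 32285 features counted, and each matched exactly 1 feature. All 10 had unique molecular identifiers (UMIs, each standing for 1 captured RNA molecule) in every library.

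The study used male targeted-replacement mice, in which human APOE44 (labelled ApoE4, here APOE4) or APOE33 (ApoE3, here APOE3) stands in place of the mouse gene. The 4 groups were APOE4 LPS, APOE4 NaCl, APOE3 LPS and APOE3 NaCl. Lipopolysaccharide (LPS), a bacterial endotoxin that sets off systemic inflammation, was given into the peritoneum at 5 mg/kg and the brain was taken 24 h later; the other groups are labelled NaCl, and the mouse age is not given in the sources used here. Brain tissue of 3 mice per group was made into suspensions enriched for glia, and each group has 1 library in which no cell can be traced to a mouse. There is no replicate library, no difference was tested, and every interval given is a 95% interval of counting error alone.

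Signals that raise calcium, cAMP or MAP kinase activity activate factors already bound to immediate-early promoters, and the transcripts appear and decay within a short time. Fos and Fosb pair with Jun or Junb to form AP-1, a dimer that binds DNA. Atf3 is a stress-induced factor of the same leucine-zipper class, Egr1 and Egr3 are zinc-finger factors, Nr4a1 is an orphan nuclear receptor, Ier2 encodes a short nuclear protein and Gadd45b a stress sensor that acts on MAP kinase signalling. Microglia, the resident macrophages of the brain parenchyma, are known to induce these genes during enzymatic dissociation at warm temperature, so that their level in a dissociated sample need not be their level in the intact brain. Whether cells were dissociated with inhibitors of transcription is not given in the sources used here, and the part of dissociation in the values below was not tested.

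The libraries held 88460913 UMIs in 29361 barcodes (APOE4 LPS), 73288965 in 14122 (APOE4 NaCl), 114378032 in 16078 (APOE3 LPS) and 78513245 in 15432 (APOE3 NaCl). The APOE4 LPS library stood apart: its median barcode had 1292 UMIs, against 3969 to 5640.5 in the other 3, and 61.9% of its barcodes passed the filters on genes, UMIs and mitochondrial share, against 92.6% to 93.7%. Clustering, from which the 10 genes and the related lists were left out, gave 36 clusters, of which 32 were named from fixed markers. The 4 unnamed clusters held 38.5% of the cells of APOE4 LPS, against 0.872% to 4.28% elsewhere. Markers placed 12 classes with at least 50 cells in every library, here called microglia, astrocytes and so on although the names rest on rebuilt clusters. Any pair of libraries shared 61 to 140 cell barcodes. A total of 5 clusters (2755 of 60717 cells) carried markers of 2 classes, as doublets do; they were kept in the classes, and for the 3 classes that hold them (astrocytes, oligodendrocytes and endothelial cells) the values without them are given as well, an alternative chosen after the data were seen. They mattered most in astrocytes, where 4.65% to 6.79% of the cells held 74.0% to 86.7% of the class's UMIs of the 10 genes.

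Promoter windows of 7 of the 10 genes were read, from RefSeq promoter sequences (GRCm38.p6). Windows of Egr1, Egr3 and Ier2 were not read, so the searches below say nothing of these genes. Each window was the 250 bases before 1 transcription start of the gene, on the gene's own strand. For Atf3 and Nr4a1 that start lies well within the annotated gene (chr1:191170296-191218039 and chr15:101254269-101274795). Windows before their outermost starts were not read. Fos, Junb, Atf3 and Nr4a1 are printed as examples of windows that hold the core marked in capitals. Their ratios in oligodendrocytes after LPS in APOE4, given below, ran from 7.45-fold for Junb to 1.19-fold for Nr4a1. Capitals mark the short core of the cAMP response element, TGACG on the printed strand or CGTCA on the other, which was searched after the full site had not been found. The windows lie at chr12:85473640-85473889 on the plus strand for Fos, chr8:84978749-84978998 on the minus strand for Junb, chr1:191183334-191183583 on the minus strand for Atf3 and chr15:101266596-101266845 on the plus strand for Nr4a1.
Fos: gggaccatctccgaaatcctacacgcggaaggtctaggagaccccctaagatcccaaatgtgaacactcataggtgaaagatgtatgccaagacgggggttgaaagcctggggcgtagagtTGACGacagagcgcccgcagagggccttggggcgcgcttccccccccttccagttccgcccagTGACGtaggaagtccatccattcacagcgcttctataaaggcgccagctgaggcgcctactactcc
Junb: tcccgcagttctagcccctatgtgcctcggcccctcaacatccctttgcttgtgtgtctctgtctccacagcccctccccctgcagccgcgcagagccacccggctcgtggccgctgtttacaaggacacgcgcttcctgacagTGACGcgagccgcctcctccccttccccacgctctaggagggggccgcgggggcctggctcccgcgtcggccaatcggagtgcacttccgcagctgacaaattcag
Atf3: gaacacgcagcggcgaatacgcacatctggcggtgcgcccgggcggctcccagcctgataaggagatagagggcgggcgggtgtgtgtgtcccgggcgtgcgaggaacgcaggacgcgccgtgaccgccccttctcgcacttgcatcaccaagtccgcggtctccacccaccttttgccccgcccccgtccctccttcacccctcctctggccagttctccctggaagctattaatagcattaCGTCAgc
Nr4a1: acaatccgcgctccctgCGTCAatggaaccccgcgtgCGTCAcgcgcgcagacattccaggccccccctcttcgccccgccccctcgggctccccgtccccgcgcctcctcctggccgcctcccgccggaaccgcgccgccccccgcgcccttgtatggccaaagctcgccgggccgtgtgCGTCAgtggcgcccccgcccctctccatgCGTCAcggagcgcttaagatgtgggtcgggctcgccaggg

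The core lay in 5 of the 7 windows, among them once in Junb, at 106 to 102 bases before the start, and 4 times in Nr4a1. It was also in Fos, Fosb and Atf3, but not in Jun or Gadd45b. The core occurs in 17.8% of the 32851 windows of this length, so the letters are common. The full cAMP response element TGACGTCA (1.55% of all windows), the AP-1 site TGANTCA (6.75%) and the CArG box bound by serum response factor (1.47%) were searched on both strands and were in none of the 7. Only these exact patterns were searched, and near matches, such as TGACATCA in the Jun window, were not counted. The core overlaps the full cAMP response element by definition. Whether the core bears on the LPS ratios was not tested, and the windows say nothing of elements farther away.

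Microglia and border-associated macrophages, the macrophages of the meninges and vessels, had the highest Fos levels in the NaCl libraries and in APOE3 LPS. Microglia held more of the UMIs of the 10 genes than any other named class in each library, while in APOE4 LPS the unnamed clusters held 33.4% of them. Microglia were 7.74% of the cells of APOE4 LPS and held 31.3% of its UMIs of the 10 genes; they were 22.04% of cells and held 61.9% in APOE4 NaCl, 28.1% and 58.1% in APOE3 LPS, and 22.04% and 59.0% in APOE3 NaCl. Levels are in CPM, the UMIs of a gene scaled to a fixed total of UMIs of its class, cells summed. Fos, the AP-1 subunit most often used as a marker of a recent stimulus, reached 1906 CPM in border-associated macrophages of APOE4 LPS, 4085 CPM in APOE4 NaCl, 2687 CPM in APOE3 LPS and 4644 CPM in APOE3 NaCl. In microglia Fos stood at 2589 CPM in APOE4 LPS, 1977 CPM in APOE4 NaCl, 2048 CPM in APOE3 LPS and 1921 CPM in APOE3 NaCl. Border-associated macrophages were thus the highest class in 3 libraries and came after microglia and pericytes in APOE4 LPS. Over the 10 genes and 4 libraries, 26 of 40 highest values were in one of these macrophage classes. Astrocytes had 34 of 40 lowest values. How often these classes were highest or lowest over all genes is not given, so neither count is read as particular to the 10 genes. For these counts astrocytes, oligodendrocytes and endothelial cells were ranked without their clusters of mixed markers, and the other classes were ranked whole. The astrocyte cluster left out held 74.0% to 86.7% of the class's UMIs of the 10 genes. The count of 34 may depend on leaving it out, and the count with it kept is not given.

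Vessel and meningeal cells were also high. Pericytes, the mural cells of capillaries, had 2126 CPM of Fos in APOE4 LPS, 1858 CPM in APOE4 NaCl, 1335 CPM in APOE3 LPS and 1702 CPM in APOE3 NaCl. Fibroblasts had 1647, 1431, 1626 and 1481 CPM in the same libraries. The class named pericytes is led by smooth muscle markers (Myh11, Myl9, Mylk) as well as pericyte markers (Vtn, Kcnj8, Ndufa4l2), so it may mix both cell types. An unnamed cluster led by the pericyte markers Abcc9 and Rgs5, which also met all 8 endothelial markers, had less Fos in every library, as given at the end. In APOE4 NaCl the counting intervals of microglia (1954 to 2001 CPM) and pericytes (1753 to 1967 CPM) overlapped, so their order there is not resolved; ependymal cells, neuroblasts or progenitors, oligodendrocytes and their precursors also overlapped with their neighbour in that library, between 207 and 250.4 CPM. The lowest class in every library was astrocytes, with 50.4 CPM in APOE4 LPS, 24.8 CPM in APOE4 NaCl, 26.9 CPM in APOE3 LPS and 24.1 CPM in APOE3 NaCl once the 1 cluster with microglial markers was left out. With that cluster they read 255, 151, 211 and 145 CPM. They were then still lowest in APOE4 LPS, but above choroid plexus in APOE4 NaCl (101 CPM) and above neurons in APOE3 LPS (182 CPM). In APOE3 NaCl choroid plexus was at 143 CPM (134 to 153 CPM), so the order there is not resolved. Less RNA per cell and fewer expressing cells cannot be told apart in such sums, and the per-cell values below address this for microglia.

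**Figure D1:**
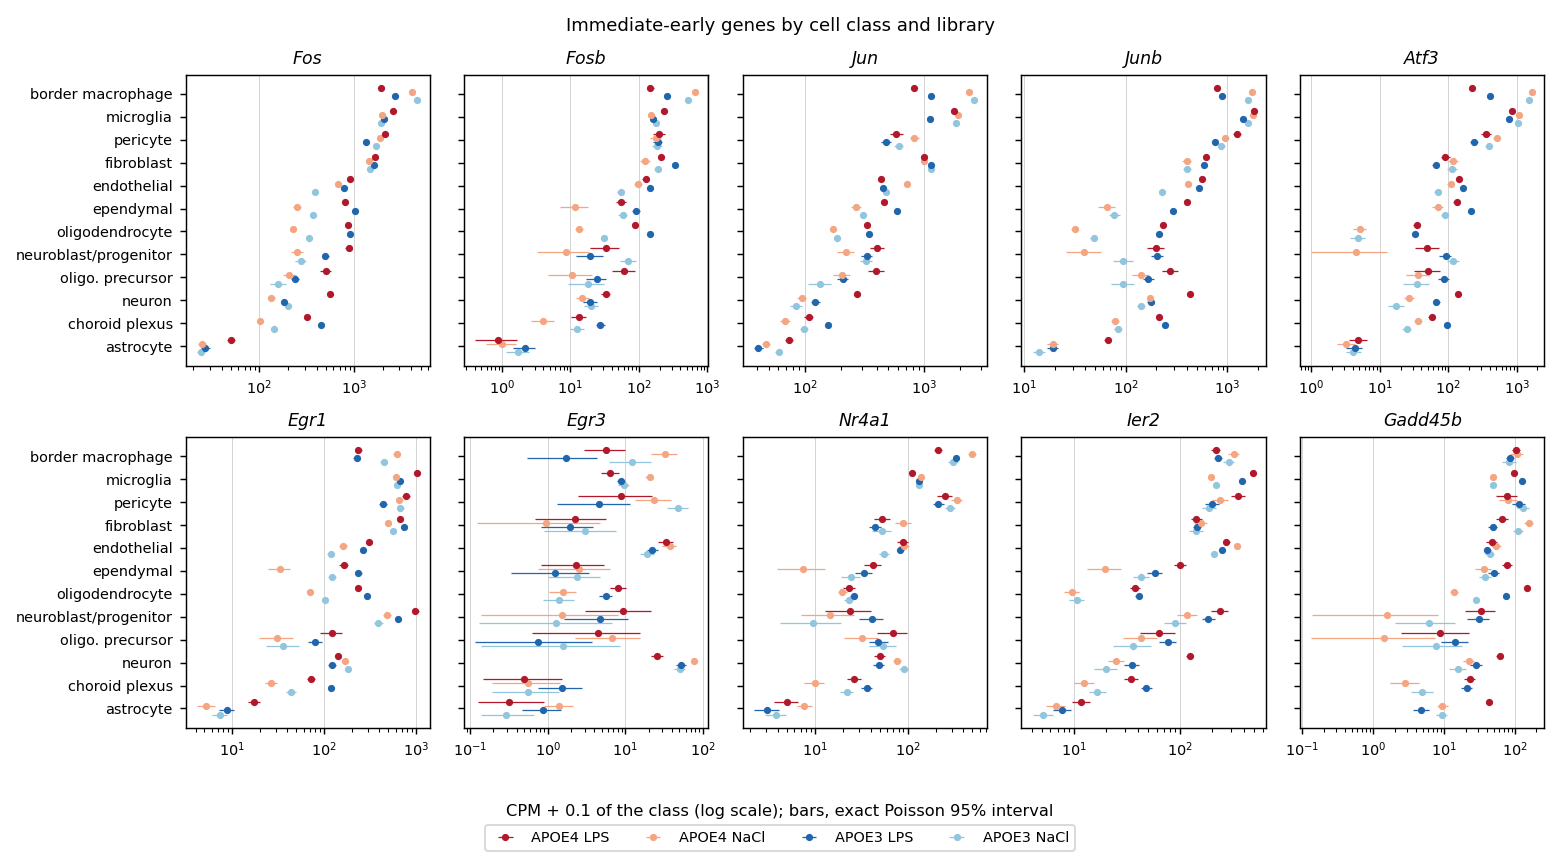
Level of each of the 10 genes (CPM of the class plus 0.1, log axis) in 12 cell classes of the 4 libraries; points are library sums, bars exact Poisson 95% intervals, and astrocytes, oligodendrocytes and endothelial cells are drawn without their clusters that carry markers of 2 classes. For Fos the macrophage classes lie among the 3 highest in each library, from 1906 to 4644 CPM, with pericytes between them in APOE4 LPS at 2126 CPM, and astrocytes lie at the bottom, from 24.1 to 50.4 CPM.

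The genes did not all follow this order. Egr3, which is induced by neuronal activity and by growth factors, was highest in neurons in 3 libraries and in endothelial cells in APOE4 LPS. In APOE3 NaCl neurons were at 50.1 CPM and pericytes next at 47.6 CPM, so their order there is not resolved. Egr1 was highest in microglia in APOE4 LPS, in pericytes in both NaCl libraries and in fibroblasts in APOE3 LPS. Gadd45b was highest in oligodendrocytes in APOE4 LPS, with 147 CPM. Across 55 class and library sums, each member was compared with the mean of the standardised members: Pearson's r was 0.94 for Fos, 0.92 for Junb and 0.90 for Fosb, but 0.75 for Egr1 and 0.48 for Egr3. Each value includes the gene itself and is a description, since sums of 1 library share its depth and free RNA.

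Among the genes outside the 10 whose pattern was most like this mean, of 18642 genes compared, were Dusp1 (r = 0.90), Btg2 (0.89), Zfp36 (0.86), Tln1 (0.86), Klf6 (0.85), Stat6 (0.84), Nfkbiz (0.84), Capzb (0.83) and Lrrk1 (0.83). Dusp1 encodes a phosphatase that shuts off MAP kinases, Zfp36 a protein that hastens decay of AU-rich mRNAs, and Btg2 and Klf6 are themselves rapidly induced. No shared control follows from such a ranking.

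Free RNA in the suspension can give other classes a low level of microglial transcripts. The 9 microglial markers, summed, stood in astrocytes without the mixed cluster at 1.73% of their level in the microglia of APOE4 LPS, 0.779% in APOE4 NaCl, 1.54% in APOE3 LPS and 0.794% in APOE3 NaCl. Fos stood at 1.95%, 1.25%, 1.31% and 1.25% of its microglial level in the same astrocytes. Astrocyte Fos was thus above the marker share in APOE4 LPS and both NaCl libraries and below it in APOE3 LPS, and it was at 13.9% against 2.61% in the 54 cells of astrocyte cluster 2 in APOE3 NaCl. The part of free RNA in astrocyte Fos was not tested. Oligodendrocytes without mixed clusters had microglial markers at 0.912%, 0.641%, 0.981% and 0.703%, but Fos at 33.0%, 11.5%, 43.5% and 17.2%, so their Fos lay far above the marker share. In neurons of APOE4 LPS the markers read 20.9% and Fos 21.3%, against 2.57% and 6.77% in neurons of APOE4 NaCl. That class consists in APOE4 LPS mainly of cluster 17 (1346 of 1554 cells), a cluster whose median cell had 1502 UMIs and whose microglial markers stood at 29.6%; the part of that RNA in the ratios of this class was not tested.

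**Figure D2:**
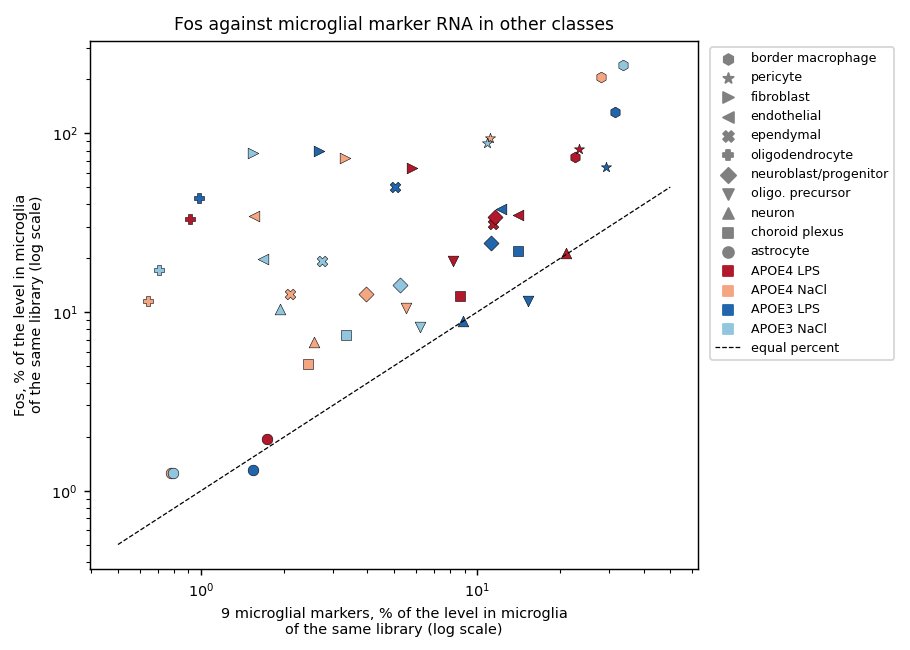
Fos (vertical, log axis) against the sum of 9 microglial markers (horizontal, log axis) in 11 classes of each library, both as percent of the level in the microglia of that library; the dashed line marks equal percent, and classes with clusters of 2 markers are drawn without them. Astrocytes and the neurons of APOE4 LPS lie near the line, while oligodendrocytes lie far above it, at 11.5% to 43.5% for Fos with markers below 1%.

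Microglia were not uniform. Although none of the 10 genes was among the clustering genes, the microglia of both NaCl libraries fell mainly into 2 clusters, and so did those of both LPS libraries, each time with 1 cluster high and 1 low in all 10 genes. After LPS, cluster 23 held 46.7% of the microglia of APOE4 (interval 44.03 to 49.3%) and 51.3% of APOE3 (49.8 to 52.8%), and cluster 21 held 48.1% in both. Among NaCl microglia, cluster 3 held 34.6% in APOE4 (32.9 to 36.4%) and 33.7% in APOE3 (32.1 to 35.4%), and cluster 4 held 58.4% and 55.8%.

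Fos was at 4056 CPM in cluster 23 of APOE4 LPS and at 476 CPM in cluster 21; in APOE3 LPS it was at 3389 and 223 CPM. In the NaCl libraries Fos was at 4091 CPM in cluster 3 of APOE4 and at 239.9 CPM in cluster 4, and in APOE3 at 3850 and 207 CPM. Atf3, which is induced by many stresses, behaved alike, with 1293 against 182 CPM in the APOE4 LPS clusters and 2126 against 169 CPM in the APOE4 NaCl clusters. Gadd45b was at 156 against 15.02 CPM in the APOE4 LPS clusters and at 76.7 against 1.85 CPM in the APOE4 NaCl clusters. The levels in each pair of clusters of a library lay apart for all 10 genes.

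**Figure D3:**
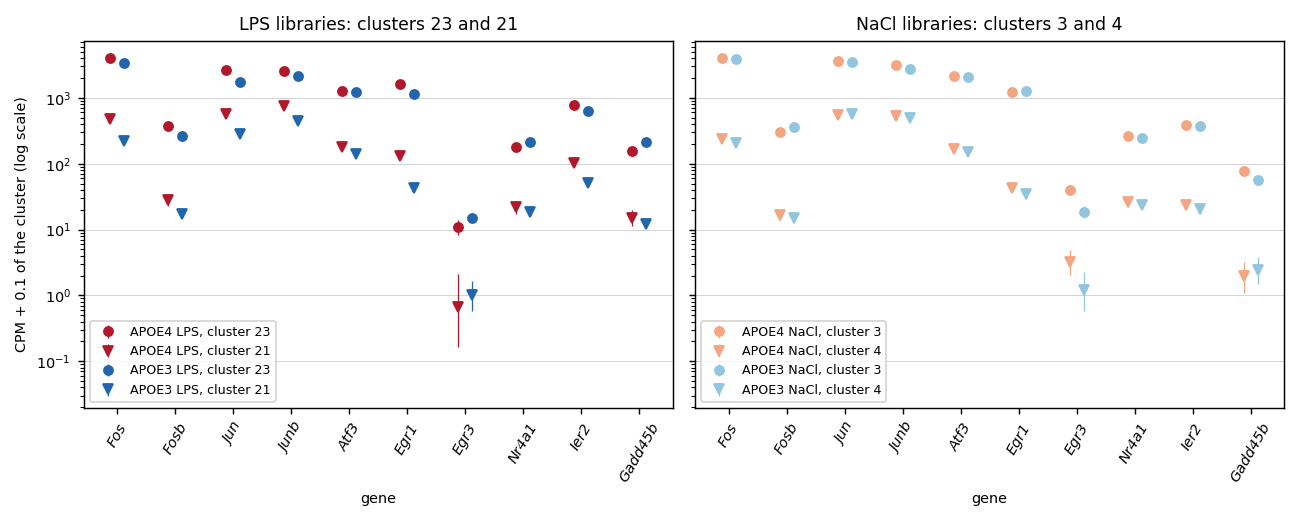
Levels of the 10 genes (CPM of the cluster plus 0.1, log axis) in the high cluster (circles) and the low cluster (triangles) of microglia of the LPS libraries (left) and the NaCl libraries (right); bars are exact Poisson 95% intervals. Circles lie above triangles for each gene in each library, for Fos at 3389 to 4091 CPM against 207 to 476 CPM.

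The clusters also differed in cytokine genes that microglia are known to induce ex vivo. Tnf was at 1105 CPM in the high and 129.9 CPM in the low cluster of APOE4 LPS (8.51-fold), and at 305 and 10.8 CPM in those of APOE4 NaCl (28.2-fold). Ccl3, a chemokine, was 6.82-fold and 10.7-fold higher in the high cluster of APOE4 LPS and APOE3 LPS, and 8.39-fold and 8.41-fold in APOE4 NaCl and APOE3 NaCl. Dusp1 was 7.72 to 14.9-fold higher over the 4 libraries and Klf2, a transcription factor induced by the same stimuli, 6.09 to 12.9-fold. The mitochondrial chaperones Hspd1 and Hspe1 were at 0.882 to 1.17-fold. Among the cytosolic heat-shock genes, Hspa1a was 1.12 to 2.83-fold and Dnajb1 1.60 to 2.70-fold. The homeostatic marker Cx3cr1 was at 2523 against 3107 CPM in the APOE4 LPS clusters and at 3914 against 4276 CPM in the APOE4 NaCl clusters. All 9 microglial markers were lower in the high than in the low cluster of each library, among them P2ry12 at 532 against 808 CPM, Siglech at 402 against 685 CPM and Fcrls at 462 against 798 CPM in APOE4 LPS. These cluster contrasts are descriptions, because the clusters were formed from the same cells.

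Per-cell values, with each cell thinned to 1000 UMIs so that depth is equal, showed the same spread. The median microglial cell had 5 UMIs of the 10 genes in APOE4 LPS, 2 in APOE4 NaCl, 3 in APOE3 LPS and 2 in APOE3 NaCl, and cells at the 90th percentile had 24, 22, 20 and 23. Between 21.6% (APOE4 LPS) and 35.5% (APOE4 NaCl) of microglia had none. Those with at least 10 were 38.2% of microglia in APOE4 LPS, 27.8% in APOE4 NaCl, 28.9% in APOE3 LPS and 27.5% in APOE3 NaCl; 184 to 499 cells per library lay close to this bound, at 8 to 12. A Fos UMI was present in 53.8% of thinned microglia of APOE4 LPS, 34.7% of APOE4 NaCl, 45.6% of APOE3 LPS and 34.3% of APOE3 NaCl (64.8%, 43.2%, 59.1% and 41.5% unthinned), against 3.24% to 8.21% of astrocytes, all astrocyte clusters included.

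**Figure D4:**
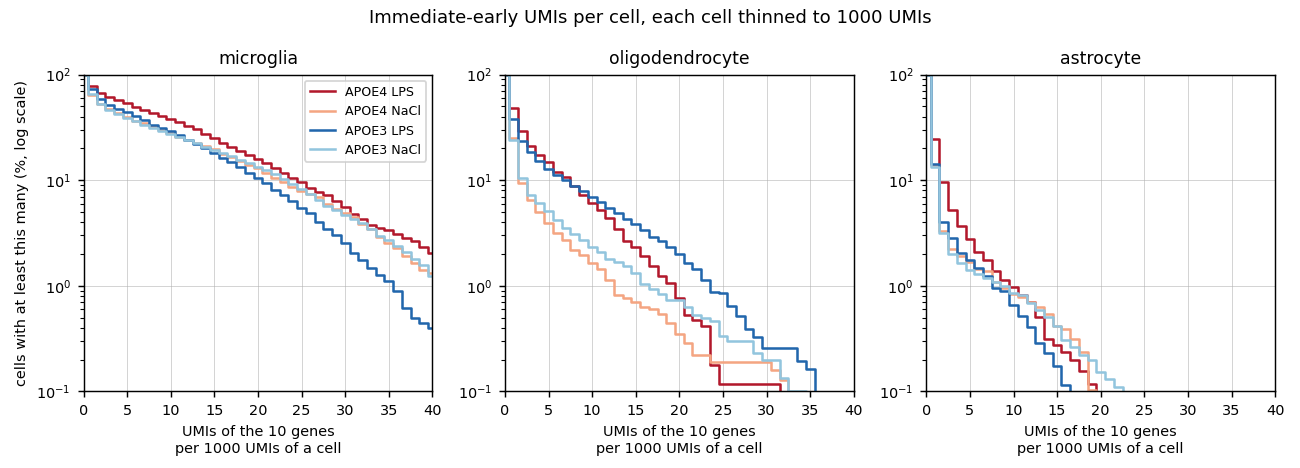
Share of cells (percent, log axis) with at least a given number of UMIs of the 10 genes after thinning each cell to 1000 UMIs, in microglia, oligodendrocytes and astrocytes of the 4 libraries, all clusters of each class included. The microglial curves extend farthest in every library, and oligodendrocytes of the LPS libraries lie above those of the NaCl libraries over most of the range, for example 6.12% and 6.93% against 1.65% and 2.34% at 10 UMIs or more.

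Within microglia the genes varied together from cell to cell. Fos and Jun correlated with r = 0.64 over 1408 thinned cells of APOE4 LPS, 0.67 over 2881 cells of APOE4 NaCl, 0.62 over 4233 cells of APOE3 LPS and 0.66 over 3174 cells of APOE3 NaCl. The median over the 45 gene pairs was 0.22, 0.29, 0.24 and 0.32 in these libraries. In oligodendrocytes the closest pair was Fos with Egr1 in every library (r = 0.61, 0.60, 0.70 and 0.67), and the median pair was at 0.13 to 0.16.

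The effect of systemic LPS differed between classes. Oligodendrocytes, the myelinating glia, had more of nearly all 10 genes after LPS in both genotypes. Without the clusters of 2 markers, 9 of 10 genes reached 1.5-fold higher levels in APOE4 (15.2% of 14110 measured genes were) and 9 of 10 in APOE3 (15.1% of 14563); the median log2 ratio was 1.90 and 1.51, against -0.01 and -0.04 over all measured genes. With those clusters the counts were 8 of 10 (17.0% of all genes) and 9 of 10 (14.1%). Oligodendrocytes were mostly of cluster 9 in the LPS libraries (1020 and 2294 cells) and of cluster 0 in the NaCl libraries (2287 and 2266 cells).

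Fos was at 854 CPM in oligodendrocytes of APOE4 LPS and 227 CPM in APOE4 NaCl, a ratio of 3.77 (3.62 to 3.93), and at 891 CPM in APOE3 LPS and 329.9 CPM in APOE3 NaCl, a ratio of 2.70 (2.61 to 2.79). Its partner Junb was at 232 CPM in APOE4 LPS and 31.2 CPM in APOE4 NaCl, a ratio of 7.45 (6.74 to 8.24), and at 213 against 48.2 CPM in APOE3, a ratio of 4.42 (4.07 to 4.81). Both genes were higher in both LPS libraries than in either NaCl library. Fosb had ratios of 6.62 (APOE4) and 4.70 (APOE3), Atf3 of 6.87 in both genotypes, Ier2 of 4.01 and 3.88, Egr1 of 3.33 and 2.90, and Jun of 1.94 and 1.84. Nr4a1 alone stayed within 1.5-fold, at 1.19 (0.988 to 1.43) and 1.14 (0.983 to 1.31).

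Gadd45b in oligodendrocytes separated the genotypes. It was at 147 CPM in APOE4 LPS and 13.6 CPM in APOE4 NaCl, a ratio of 10.8 (9.34 to 12.6), and at 73.1 CPM in APOE3 LPS and 27.98 CPM in APOE3 NaCl, a ratio of 2.61 (2.33 to 2.93). APOE4 was thus 2.01-fold higher than APOE3 among the LPS libraries and 0.486-fold among the NaCl libraries. In cluster 10, an oligodendrocyte cluster of all 4 libraries (276, 514, 371 and 339 cells), the ratios were 5.83 (4.11 to 8.41) in APOE4 and 4.69 (3.26 to 6.95) in APOE3, and their intervals overlapped.

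Within that shared cluster Fos, Fosb, Jun, Junb, Egr1, Atf3 and Ier2 were also at least 1.5-fold higher after LPS in both genotypes, while Nr4a1 was at 0.835 (0.23 to 2.55) in APOE4 and 1.85 (0.782 to 4.87) in APOE3. Fos was at 1064 CPM in APOE4 LPS and 269 CPM in APOE4 NaCl (3.95-fold), and at 1312 CPM in APOE3 LPS and 448 CPM in APOE3 NaCl (2.93-fold). Junb was at 179 against 23.1 CPM in APOE4 (7.76-fold) and at 262 against 37.8 CPM in APOE3 (6.93-fold). Microglial markers there stood at 0.811%, 0.884%, 0.836% and 1.23% of the microglial level in APOE4 LPS, APOE4 NaCl, APOE3 LPS and APOE3 NaCl, lower in the LPS than in the NaCl library of each genotype.

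Related lists were read in the same oligodendrocytes, without the clusters of 2 markers, where 15.2% of all measured genes were higher and 15.6% lower in APOE4, and 15.1% higher and 14.4% lower in APOE3. Of 15 measured other immediate-early transcription factors, 10 were higher and 0 lower in APOE4, and 10 higher and 1 lower in APOE3, with median log2 ratios of 0.77 and 0.74. Maff, a small Maf factor, was at 23.7 against 0.511 CPM in APOE4 (46.3-fold) and at 29.7 against 0.727 CPM in APOE3 (40.9-fold), and Klf4 had ratios of 6.34 and 6.62. Of 17 measured genes of feedback and mRNA decay, 14 were higher in APOE4 and 8 in APOE3, with none lower and median log2 ratios of 0.87 and 0.45; Dusp1 was at 147 against 25.5 CPM in APOE4 (5.75-fold) and at 154 against 35.2 CPM in APOE3 (4.38-fold).

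Among the Gadd45 family and p53 or integrated stress targets, 7 of 10 measured genes were higher in APOE4 and 6 of 10 in APOE3. Cdkn1a, which encodes the cell-cycle inhibitor p21, was at 1724 CPM in APOE4 LPS and 13.1 CPM in APOE4 NaCl (132-fold), and at 1618 against 18.1 CPM in APOE3 (89.4-fold). Of 19 upstream kinases and SRF and CREB factors, 2 were higher and 1 lower in APOE4, and 1 and 1 in APOE3. Of the 9 heat-shock genes, 2 and 3 were higher: Hspb1 was 30.4-fold and 12.5-fold, while Dnajb1 in APOE4 was at 0.744-fold. Of the 9 measured dimer partners of AP-1, 3 were higher and 1 lower in each genotype, with Cebpb, a leucine-zipper factor of inflammation, at 15.3-fold and 11.5-fold. Microglial cytokine genes were higher too, in 5 of 6 measured in APOE4 and 6 of 7 in APOE3, where 1 was lower, from low levels such as 4.73 against 0.192 CPM for Tnf in APOE4. Tnf in the microglia of these libraries was at 684 against 177 CPM, and microglial markers in the oligodendrocytes at 0.912% against 0.641% of their microglial level; the part of microglial RNA in the cytokine counts was not tested. Of 3 measured neuronal activity genes, 2 were higher and 1 lower in APOE4, and 1 and 1 in APOE3.

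**Figure D5:**
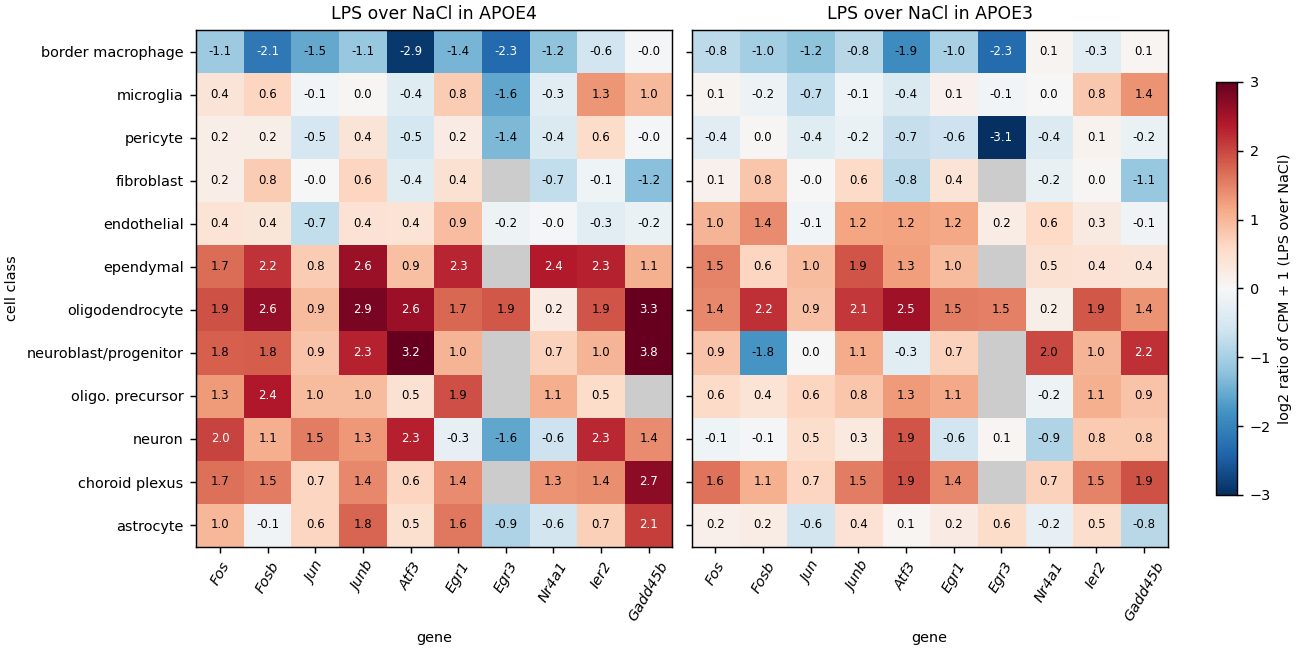
Log2 ratio of LPS over NaCl (CPM plus 1) for the 10 genes in 12 classes, APOE4 left and APOE3 right; grey marks genes under 10 UMIs in both libraries, and the 3 classes with clusters of 2 markers are drawn without them. Oligodendrocytes, ependymal cells and choroid plexus are red for most genes in both genotypes, and border-associated macrophages are blue, with Atf3 at -2.90 and -1.88.

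Border-associated macrophages went the other way. After LPS 8 of 10 genes were at least 1.5-fold lower in APOE4 (19.8% of 11366 measured genes were) and 7 of 10 in APOE3 (24.8% of 11352), and none was higher; the median log2 ratio was -1.30 and -0.90, against 0.00 and -0.11 over all measured genes. Atf3 was at 221 CPM in APOE4 LPS and 1649 CPM in APOE4 NaCl, a ratio of 0.134 (0.12 to 0.149), and at 406 CPM in APOE3 LPS and 1495 CPM in APOE3 NaCl, a ratio of 0.272 (0.25 to 0.295). Jun was at 820.3 against 2387 CPM in APOE4 (0.344) and at 1129.9 against 2603 CPM in APOE3 (0.434). Both genes were lower in both LPS libraries than in either NaCl library.

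Fos had ratios of 0.466 (0.446 to 0.488) and 0.579 (0.557 to 0.602) in these macrophages. Nr4a1 was at 213 against 496 CPM in APOE4, a ratio of 0.429, and at 328 against 308 CPM in APOE3, a ratio of 1.07, so it was lower in 1 genotype only, a difference that was not tested. Gadd45b stood at 0.982 and 1.04. All of these cells came from 1 cluster of 370, 165, 300 and 193 cells in APOE4 LPS, APOE4 NaCl, APOE3 LPS and APOE3 NaCl. After thinning, a Fos UMI was present in 66.2% of them in APOE4 LPS and 58.8% in APOE4 NaCl, and in 59.3% and 64.2% in APOE3, while the cell at the 90th percentile had 13 against 32.6 UMIs of the 10 genes in APOE4 and 18 against 34 in APOE3. The cells richest in the 10 genes thus had fewer of their UMIs after LPS.

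Related genes lay on both sides in border-associated macrophages, where 21.5% of all measured genes were higher and 19.8% lower in APOE4, and 17.2% higher and 24.8% lower in APOE3. Other immediate-early transcription factors were lower in 11 of 15 measured in APOE4 and 6 of 15 in APOE3, with 1 higher in each, Nfil3, a leucine-zipper repressor, at 3.97-fold and 6.07-fold. Jund was at 751 against 2021 CPM in APOE4 and at 1021 against 1895 CPM in APOE3. Feedback and mRNA decay genes were lower in 8 of 19 and higher in 3 of 19 in each genotype. Of the 9 heat-shock genes, 4 were lower and 3 higher in APOE4, and 3 lower and 0 higher in APOE3. Among the lower ones, Hspa1a, Hspa1b and Dnajb1 had ratios of 0.197, 0.196 and 0.157 in APOE4 and of 0.337, 0.29 and 0.324 in APOE3. The part of dissociation in these ratios was not tested. Of the 19 upstream kinases and SRF and CREB factors, 1 was higher and 1 lower in APOE4, and 1 and 4 in APOE3. The cytokine list had 1 of 8 higher and 2 lower in APOE4, and 3 and 3 in APOE3: Cxcl2 was 1.88-fold and 2.30-fold higher and Cd83, a surface protein, was at 0.216 and 0.47. The dimer partners had 3 of 11 higher and 1 lower, Maf at 0.442 and 0.418; the Gadd45 and stress targets 4 of 9 higher and 1 lower in APOE4, and 2 and 3 in APOE3; and both measured neuronal activity genes were lower.

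In microglia as a class the 10 genes diverged. In APOE4, 4 of 10 were higher after LPS (13.5% of all measured genes) and 1 lower (18.8%); in APOE3, 2 were higher (11.4%) and 1 lower (22.2%). The median log2 ratio was 0.21 and -0.04, against -0.07 and -0.15 over all measured genes, so the median gene shifted little in the class sums. The per-cell values moved more in APOE4. Microglia with at least 10 thinned UMIs of the 10 genes were 38.2% after LPS against 27.8% in APOE4, and 28.9% against 27.5% in APOE3. Ier2 was at 488 CPM in APOE4 LPS and 196 CPM in APOE4 NaCl, a ratio of 2.49 (2.37 to 2.62), and at 384 against 217 CPM in APOE3, a ratio of 1.77 (1.70 to 1.84). Gadd45b was at 95.7 against 48.4 CPM in APOE4 (1.98) and at 125.7 against 48.5 CPM in APOE3 (2.59). These were the genes past 1.5-fold in both genotypes.

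Jun in microglia was at 1783 CPM in APOE4 LPS and 1899 CPM in APOE4 NaCl, a ratio of 0.938 (0.92 to 0.957), and at 1109 CPM in APOE3 LPS and 1844 CPM in APOE3 NaCl, a ratio of 0.601 (0.592 to 0.611). Egr1 was at 1021 against 602 CPM in APOE4 (1.70) and at 677 against 624 CPM in APOE3 (1.09). Egr3 was at 6.24 against 20.5 CPM in APOE4 (0.305) and at 8.80 against 9.44 CPM in APOE3 (0.933). The feedback and mRNA decay genes were higher in 10 of 19 and lower in 1 in APOE4, and higher in 8 of 20 and lower in 3 in APOE3, and the cytokine list was higher in 4 and 7 of 8, Cxcl2 at 23.1-fold and 18.2-fold. Other immediate-early factors were higher in 6 and lower in 2 of 15 in each genotype, with Nfil3 at 9.15-fold and 8.72-fold and Klf2 at 0.546 and 0.376. Heat-shock genes were higher in 6 of 9 in APOE4, among them Hspd1 at 2.21-fold, and in 0 of 9 in APOE3, where 1 was lower. Dimer partners were higher in 4 of 11 in each genotype and lower in 1 and 2, Jdp2 at 4.33-fold and 4.18-fold; the Gadd45 and stress targets were higher in 4 of 10 and 4 of 11 and lower in 1 and 0; the upstream factors were higher in 0 of 19 in each and lower in 0 and 1; and of 2 neuronal activity genes 2 and 0 were higher.

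Cells of the ventricles were higher after LPS. In choroid plexus, the epithelium that makes cerebrospinal fluid, 9 of 9 measured genes reached 1.5-fold higher levels in APOE4 (30.1% of all measured genes) and 9 of 9 in APOE3 (16.7%), with median log2 ratios of 1.41 and 1.48 against 0.26 and 0.02 over all genes. Fos was at 319 CPM in APOE4 LPS and 101 CPM in APOE4 NaCl (3.16), and at 447 CPM in APOE3 LPS and 143 CPM in APOE3 NaCl (3.13). Microglial markers also moved there, at 8.69% of the microglial level in APOE4 LPS against 2.44% in APOE4 NaCl and 14.04% against 3.35% in APOE3, with Fos at 12.3% against 5.10% and 21.8% against 7.45%; their part in the ratio was not tested.

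Ependymal cells, which line the ventricles, had 9 of 9 genes higher and 0 lower in APOE4 (14.2% and 16.4% of all genes), and 6 of 9 higher in APOE3 (7.70%). Junb was at 396 CPM in APOE4 LPS and 65.5 CPM in APOE4 NaCl, a ratio of 6.05 (4.95 to 7.46), and at 289.8 CPM in APOE3 LPS and 77.3 CPM in APOE3 NaCl, a ratio of 3.75 (3.24 to 4.35). Fos had ratios of 3.22 and 2.79. Microglial markers were at 11.4% against 2.10% in APOE4 and at 5.05% against 2.75% in APOE3, while Fos was at 30.9% against 12.6% and at 50.2% against 19.2% of the microglial level; whether that RNA adds to the ratio was not tested. All ependymal cells came from 1 cluster (516, 163, 199 and 272 cells).

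Endothelial cells, which line vessels, differed little in APOE4 and more in APOE3. Without mixed clusters 1 of 10 genes was higher after LPS in APOE4 (19.7% of all genes) and 1 lower (22.0%), and 6 of 10 were higher in APOE3 (16.6%). With the mixed clusters, 0 were higher and 1 lower in APOE4 (12.5% and 26.6%), and 4 were higher in APOE3 (12.3%). Fos was at 902 CPM in APOE4 LPS and 681 CPM in APOE4 NaCl (1.33), and at 772 CPM in APOE3 LPS and 382 CPM in APOE3 NaCl (2.02). The class lay mainly in cluster 5 after LPS and in cluster 6 with NaCl, and microglial markers stood at 14.03% and 12.2% of the microglial level in the LPS libraries but 1.55% and 1.67% in the NaCl libraries; the part of that RNA in the ratios was not tested. Jun was at 431 against 716 CPM in APOE4, a ratio of 0.602, and at 453 against 478 CPM in APOE3, a ratio of 0.947. Pericytes had 0 genes higher in either genotype (13.9% and 14% of all genes were) and fibroblasts 2 and 1 of 9 (13% and 11.7%), Fosb among them at 1.69-fold and 1.77-fold. Lower after LPS were 1 of 10 genes in pericytes of APOE4 (24.1% of all genes) and 3 of 10 in APOE3 (18.1%), Egr3 among them at 0.365 (4 against 15 UMIs) and 0.0946 (4 against 40 UMIs), and in fibroblasts 2 of 9 in each genotype (19.5% and 17.4%), Gadd45b among them at 0.419 and 0.447. Neuroblasts or progenitors had 9 of 9 higher in APOE4 (14% of all genes) and 6 of 9 in APOE3 (14.9%), oligodendrocyte precursors 6 of 8 (13.1%) and 6 of 9 (16.3%; 0 lower in APOE3, against 16.1%), and neurons 7 of 10 (21.5%) and 3 of 10 (11.8%). In neurons 2 were lower in APOE4 (23% of all genes), Egr3 at 0.33 and Nr4a1 at 0.648, and 1 in APOE3 (11.5%), Nr4a1 at 0.533, and in neuroblasts 0 were lower in APOE4 (15.4%) and 1 in APOE3 (11.1%), Fosb at 0.281. Microglial markers in neurons were at 20.9% against 2.57% of the microglial level in APOE4 and 8.88% against 1.93% in APOE3, in neuroblasts at 11.6% against 3.95% in APOE4 and 11.3% against 5.26% in APOE3, and in precursors at 8.17% against 5.50% and 15.3% against 6.19%; their part in these counts was not tested.

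In astrocytes without the mixed cluster, 7 of 10 genes were higher and 2 lower in APOE4 after LPS (11.9% and 9.10% of all genes), and 2 higher and 1 lower in APOE3 (7.94% and 10.6%). With that cluster, 4 were higher and 1 lower in APOE4 (13.5% and 10.3%), and 2 higher and 0 lower in APOE3 (8.75% and 11.4%). The Fos level among them is given above beside the microglial markers. Gadd45b stood at 44.2% of its microglial level in APOE4 LPS: it was at 42.3 CPM in APOE4 LPS and 9.33 CPM in APOE4 NaCl, a ratio of 4.54 (3.72 to 5.56), and at 4.62 CPM in APOE3 LPS and 9.07 CPM in APOE3 NaCl, a ratio of 0.509 (0.371 to 0.693). In APOE4 LPS it was concentrated in cluster 2, whose leading genes include Gfap, the classical gene of reactive astrocytes, and the interferon-induced GTPases Iigp1 and Gbp2. Gadd45b was at 100.7 CPM there, 105% of its level in the microglia of that library, against 6.14 and 11.9 CPM in clusters 1 and 8, while microglial markers were at 1.94%, 1.71% and 1.52% in the 3 clusters.

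Cluster 2 held 810 cells of APOE4 LPS, 8 of APOE4 NaCl, 130 of APOE3 LPS and 54 of APOE3 NaCl. Junb was at 127.7 CPM there in APOE4 LPS, against 35.4 and 27.9 CPM in clusters 1 and 8, and at 41.9 CPM in cluster 2 of APOE3 LPS. Gadd45b in cluster 2 was at 14.5 CPM in APOE3 LPS and at 30.7 CPM in the 54 cells of APOE3 NaCl, where Junb was at 123 CPM and Fos at 13.9% of its microglial level. Jun was higher in astrocyte cluster 1 than in cluster 8 in every library: it was at 51.6 against 30.9 CPM in APOE4 LPS, 62.7 against 25.3 CPM in APOE4 NaCl, 51.3 against 29.1 CPM in APOE3 LPS and 88.0 against 27.4 CPM in APOE3 NaCl. Microglial markers in these clusters were between 0.706% and 1.71%, and no higher in cluster 1 than in cluster 8 in APOE4 NaCl and APOE3 LPS.

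The APOE genotype was compared at each treatment. In microglia after LPS, 2 of 10 genes passed 1.5-fold with APOE4 above APOE3 (9.31% of 15097 measured genes were) and 0 lower (6.64%): Jun was at 1783 CPM in APOE4 against 1109 CPM in APOE3, a ratio of 1.61 (1.58 to 1.64), and Egr1 at 1021 against 677 CPM, a ratio of 1.51 (1.47 to 1.54). Without LPS, 1 of 10 was higher (4.87%), Egr3 at 20.5 CPM in APOE4 against 9.44 CPM in APOE3 (2.17, 1.76 to 2.68), and 8 of the other 9 ratios lay between 0.839 and 1.06, with Junb at 1.13. NaCl microglia of the genotypes thus had near equal levels of nearly all 10 genes.

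Endothelial cells of the NaCl libraries differed by genotype. Leaving mixed clusters out, 7 of 10 passed 1.5-fold, with APOE4 above (4.30% of 12316 measured genes were), and with them 5 of 10 (6.25%). Fos was at 681 CPM in APOE4 NaCl and 382 CPM in APOE3 NaCl, a ratio of 1.78 (1.66 to 1.90), Junb at 413 against 229 CPM (1.81) and Ier2 at 344 against 208 CPM (1.66). Microglial markers were at 1.55% and 1.67% there. After LPS 0 of 10 were past 1.5-fold in either direction (8.15% higher and 8.23% lower over all genes).

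Oligodendrocytes of the NaCl libraries, without mixed clusters, had 3 of 10 genes at least 1.5-fold lower in APOE4 (5.02% of 14090 measured genes). Fosb was at 13.3 CPM in APOE4 NaCl and 31.03 CPM in APOE3 NaCl (0.43), Gadd45b at 13.6 against 27.98 CPM (0.486) and Junb at 31.2 against 48.2 CPM (0.647). After LPS 1 was higher, Gadd45b, and 1 lower, Fosb at 88.4 against 146 CPM (0.606), with 7.90% and 6.19% over all genes. Border-associated macrophages after LPS had 1 gene higher (12.7%) and 3 lower (7.50%) in APOE4, Atf3 at 221 against 406 CPM (0.543) among the lower ones, and without LPS 2 higher (10.4%) and 0 lower (15%), Nr4a1 at 496 against 308 CPM (1.61) among them. Astrocytes after LPS had 7 genes higher and 2 lower in APOE4 without the mixed cluster (9.10% and 4.52%), and 1 higher and 1 lower with it (8.27% and 5.17%). A single library per genotype and treatment stands behind each of these values, so genotype cannot be told apart from the library.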

How the data were processed

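Single-cell libraries (10x Genomics 3' v3.1) were sequenced from 4 groups, 1 library each. The deposited values are counts of UMIs per gene and barcode, made by the authors (Cell Ranger 7.0.1 in the file headers) on mm10, per the submitters' processing notes. The filter asked for 500 genes, 1000 UMIs and no more than 20% of UMIs from mitochondrial genes; 60717 of 74993 barcodes passed. Cells were clustered with scanpy 1.11.5 and igraph 0.11.9 (2000 variable genes without the 10 genes and the related lists, 30 components, 15 neighbours, Leiden resolution 1) and named from fixed markers of 18 types. Doublets were kept in the main values: Scrublet called 0 of 18182 cells of APOE4 LPS and so did not work there, and was used as an alternative in the other libraries.

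UMIs were summed by library and class and given as CPM. Ratios carry exact conditional binomial intervals, sums exact Poisson intervals and shares exact binomial (Clopper-Pearson) intervals, computed with scipy 1.17.1. A gene with 10 UMIs or more in either library of a comparison counted as measured, and as higher or lower at 1.5-fold. With 1 library per group there was no test and no p-value. The ratio scripts were tested on simulated data. Named were all 10 genes in the 12 classes with at least 50 cells in every library, the 10 other genes with the most similar pattern (1 of them is not reported here), and up to 4 genes of each list with the largest ratio; further list genes were chosen after their values were seen. The 10 genes and the lists were chosen with earlier results of these data known. The alternatives tried changed the barcode filters, doublets, resolution, clustering genes, scaling, thinning, low-count filter and pseudocount.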

Additional observations from a re-analysis of the deposited data

Results flagged for a closer look

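Fosb in neuroblasts or progenitors was higher after LPS in APOE4, with a ratio of 3.81 (18 against 6 UMIs), and lower in APOE3, with a ratio of 0.281 (21 against 58 UMIs). The libraries of the genotypes thus moved in opposite directions, and the difference was not tested. Gadd45b in astrocytes without the cluster of 2 markers had a ratio of LPS over NaCl of 4.54 in APOE4 and of 0.509 in APOE3, which was not tested either. Egr3 in the same astrocytes had a ratio of 0.168 in APOE4 (0.019 to 0.696, from 2 against 19 UMIs) and of 3.93 in APOE3 (1.011 to 22.2, from 10 against 3 UMIs), from levels below 1.4 CPM in every library; this difference was also not tested.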

How the results depend on the processing

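Over 12 classes and 10 genes, 58 of 114 measured pairs were at least 1.5-fold higher and 16 lower after LPS in APOE4, and 48 of 115 higher and 15 lower in APOE3. Between genotypes, 26 pairs were higher and 16 lower in APOE4 after LPS, and 15 higher and 18 lower without it. Over all measured genes, the share higher after LPS ran by class from 12.5% to 30.1% in APOE4 and from 7.70% to 17.2% in APOE3. The share lower ran from 6.05% to 26.6% and from 10.6% to 24.8%. Between genotypes, 6.34% to 20.9% were higher and 4.88% to 20.7% lower in APOE4 after LPS. Without it, the shares were 3.04% to 11.9% and 5.56% to 36.4%. Counts of lower pairs and counts between genotypes are not read as results about the 10 genes. The LPS count in APOE4 stayed within 1.5 times of the counts above under all alternatives run. The lower count in APOE3 was 8 with at least 200 genes and 500 UMIs and 9 at Leiden resolution 2. Among LPS libraries, the count higher in APOE4 was 40 with Scrublet calls removed and 46 as a mean over cells, and the count lower was 8 with Scrublet calls removed, 9 with the members and lists among the clustering genes and 9 as a mean over cells. Among NaCl libraries, 24 were higher at resolution 2 and 9 lower as a mean over cells. The cause of these shifts was not tested.

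Some single log2 ratios changed sign. Egr3 in border-associated macrophages was at 0.80 in APOE4 and 2.92 in APOE3 with at least 200 genes and 500 UMIs, and at 0.85 and 1.41 at resolution 2. Fosb in neuroblasts of APOE4 was at -0.55 with at least 2000 UMIs and -0.013 at resolution 2. As a mean over cells, Fosb and Jun in choroid plexus of APOE3 were at -0.32 and -0.073. Egr3 in astrocytes, APOE4 over APOE3 after LPS, was at 0.31 with at least 2000 UMIs and 0.34 with Scrublet calls removed. The median of the 10 genes in neurons, APOE4 over APOE3 after LPS, was -0.18 with at least 2000 UMIs. No paired analysis was possible because each group has 1 library. Counting intervals cover neither mouse-to-mouse nor library-to-library spread.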

Other observations

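The 4 clusters left unnamed carried the 10 genes as well. In APOE4 LPS, Fos was at 938 CPM in cluster 13 (4785 cells), whose leading genes are Ccl5, Saa3 and Msr1, at 1505 CPM in cluster 14 (1277 cells), led by Marco and Ccl5, and at 1276 CPM in cluster 15 (720 cells), led by Prok2 and Timp1. Cluster 20, led by the pericyte markers Abcc9 and Rgs5, had Fos at 776 CPM in APOE4 LPS, 252 CPM in APOE4 NaCl, 489 CPM in APOE3 LPS and 330 CPM in APOE3 NaCl.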
